A study of Rattus norvegicus with 96 samples.

Results

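Small RNA from the visceral (epididymal) fat of 12 male Sprague Dawley rats was compared between a whole egg-based diet and a casein-based diet, over all 64 microRNAs counted in that tissue. The members were taken as every row of the fat microRNA table, with 6 rats on egg and 6 on casein. The 12 fat small RNA libraries were among 96 libraries of the series, which also holds small RNA from kidney, liver and prefrontal cortex (PFC) of the same rats and messenger RNA from all 4 tissues. The 4 microRNA tables together list 107 microRNAs, of which 39 were common to all tables and 3 were listed for visceral adipose tissue (VAT) alone.

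The egg group was rats 2, 4, 5, 8, 10 and 12, and the casein group was rats 1, 3, 6, 7, 9 and 11. Both groups were intact outbred males with no transgene, fed their diet freely for 2 weeks, with protein at 20% of the diet by weight in each, and both were fasted overnight before tissues were collected at 9 weeks of age. By the paper, fat and energy were also matched between the diets, with corn oil as the fat of the casein diet. Whole egg brings its own kinds of lipid and its micronutrients, which the comparison cannot separate from its protein. All rats had first been trained to eat within a short window and bled over a time course. Diet was read from the headings of the count columns, since the sample labels give tissue and animal number but no diet. Each library is a separate rat.

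MicroRNAs are short RNAs cut from hairpin precursors that guide Argonaute proteins to messenger RNAs. Pairing is led by the seed, bases 2 to 8 of the mature strand, and usually lowers translation and stability of the target. MicroRNAs with the same seed can share targets, and those of 1 precursor or 1 gene cluster are often made together. In fat, microRNAs act in adipocyte differentiation, lipid storage and signalling to other organs, and whole fat also holds vessels, connective tissue, immune cells and blood. In such bulk tissue, fewer cells of a type and less RNA per cell cannot be told apart.

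A mature sequence was found in RefSeq (GRCr8) for 58 of the 64 microRNAs. The 4 microRNAs with the lowest unadjusted p in the diet comparison are shown first, with the seed in capitals and all 5′ to 3′. The 4 seeds differ from one another.
miR-140-3p: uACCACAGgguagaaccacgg
miR-191a-5p: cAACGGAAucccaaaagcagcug
miR-125b-5p: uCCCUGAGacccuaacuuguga
miR-10b-5p: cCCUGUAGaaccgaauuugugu

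In GRCr8, the miR-140 hairpin lies on chromosome 19 within Wwp2, the miR-191 hairpin on chromosome 8 within Dalrd3, the annotated miR-125b hairpin (Mir125b2) on chromosome 11, and the miR-10b hairpin on chromosome 3 within Hoxd4, one of the Hox genes that pattern the body axis. Relatives of these sequences are shown next because reads of near-identical microRNAs may be split or shared in counting.
miR-10a-5p: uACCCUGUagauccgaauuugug
miR-125a-5p: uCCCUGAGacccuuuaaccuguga
miR-351-5p: uCCCUGAGgagcccuuugagccuga
miR-99b-5p: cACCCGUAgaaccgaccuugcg
miR-100-5p: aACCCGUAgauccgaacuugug

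The annotated miR-10b-5p starts 2 bases later than miR-10a-5p, so that their seeds as annotated differ, and over the 21 bases that align they differ at 1 position (U12A, counted from the 5′ end of miR-10a-5p, with the miR-10a base first). Counts of miR-10a-5p and miR-10b-5p are therefore uncertain as separate values, and their sum is given below. MiR-125a-5p, miR-125b-5p and miR-351-5p share the seed CCCUGAG, and miR-125a-5p and miR-125b-5p differ at 7 of 22 aligned bases. The largest shared seed was GAGGUAG, with 8 members (7 let-7 forms and miR-98-5p), and 11 seeds in all had 2 or more members among the 58.

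The library of rat 12, on egg, stood apart before any comparison. Its total was 44390 counts, 4.44% of the median of the other 11 libraries, whose totals ran from 478855 to 1536300. The median total was 885014 counts on egg and 960388 on casein, and the difference of the means was small against its spread (exact two-sided permutation p = 0.519). On log2 CPM (count over the library size, scaled by TMM, edgeR's trimmed mean factor), the median correlation of rat 12 with the other libraries was 0.757, against 0.863 to 0.939 for the others. All 64 microRNAs had at least 10 counts in at least 6 libraries and were tested. Of 12 counts of 0 in the table, 6 were in rat 12. The smallest count above 0 was 12 in rat 12 and 81 to 343 in the others, so a 0 may stand for a low value and not for none. Rat 9, on casein, had the lowest TMM factor, 0.575, against 0.834 to 1.26 in the others, so that its scaled values stand higher than its shares of the counts.

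Some microRNAs that mark other tissues had a far larger share of the counts in rat 12 than in the other libraries. MiR-9a-5p, an abundant microRNA of brain, had 810 counts in rat 12, against 789 to 2381 in the other 11 libraries. In shares of the counts this was 18247 CPM in rat 12 and at most 3978 CPM in the others, with a median of 233076 CPM in PFC. MiR-122-5p, the defining microRNA of hepatocytes, had 742 counts in rat 12 and 1000 to 4339 in the others, and its median share in liver was 352595 CPM. In fat its share was 16716 CPM in rat 12 and 971 to 7865 CPM in the others. On the TMM scale rat 12 was 1.82 times the next highest library, a smaller excess than the 4.08 times of miR-9a-5p.

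MiR-127-3p, from an imprinted cluster on chromosome 6 and abundant in brain, had 749 counts in rat 12 and 0 to 447 in the others, although the library was the smallest. On the TMM scale 7 microRNAs were more than 2 times as high in rat 12 as in every other library: miR-127-3p, miR-221-3p, miR-9a-5p, miR-181b-5p, miR-192-5p, miR-181a-5p and miR-99a-5p. Where the signal of these microRNAs in rat 12 came from was not tested, and results that rest on rat 12 are given with and without it.

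**Figure D1:**
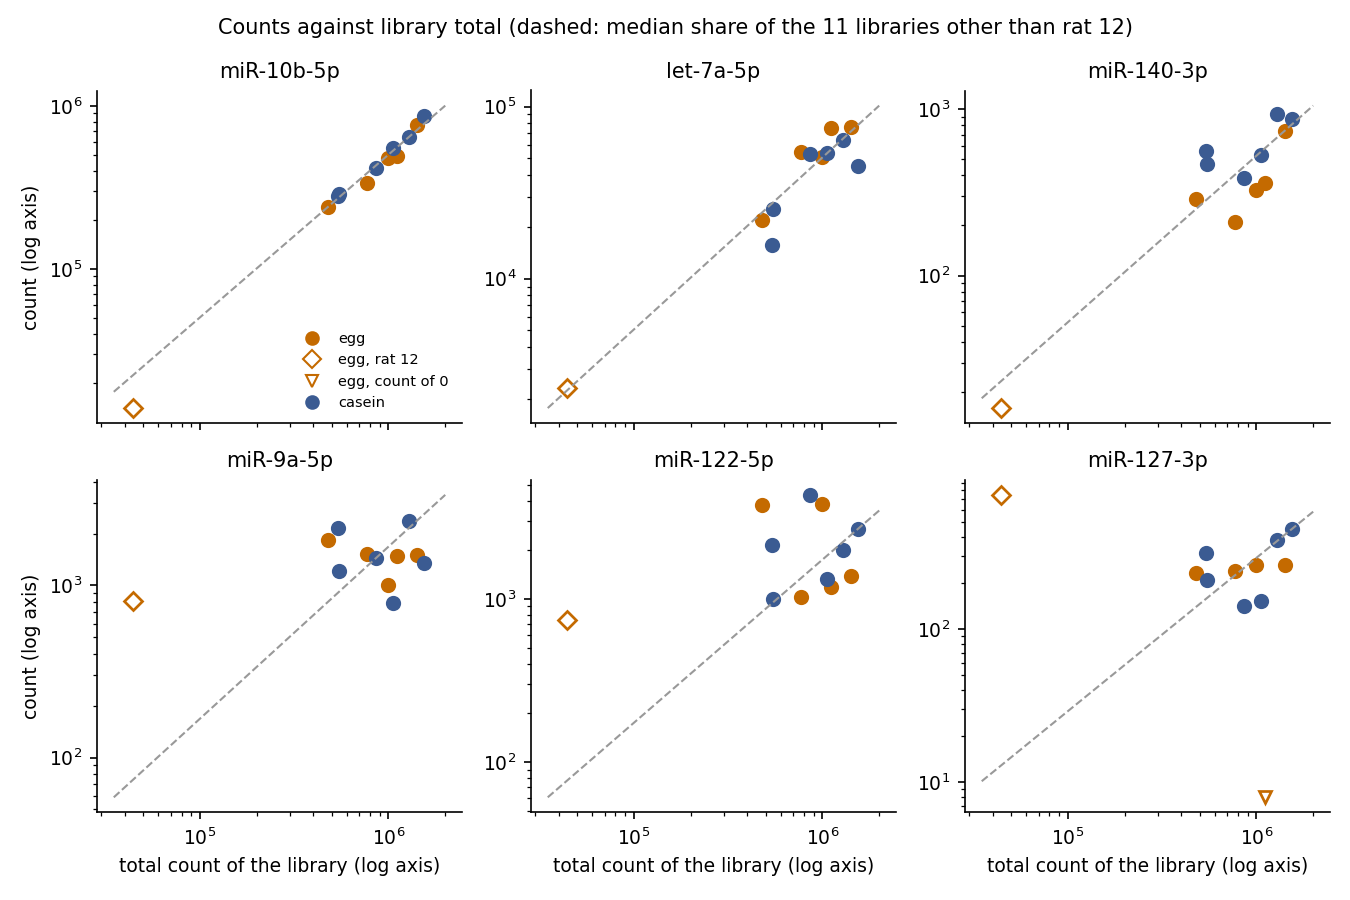
Count of 6 microRNAs (y, log axis) against the total count of each fat library (x, log axis), with egg in orange, casein in blue, rat 12 as an open diamond and a count of 0 as an open triangle drawn at the bottom. The dashed line is the median share of the 11 libraries other than rat 12. Rat 12 lies near the line for let-7a-5p and below it for miR-10b-5p, and far above it for miR-9a-5p (810 counts), miR-122-5p (742) and miR-127-3p (749).

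The tissue was checked against microRNA markers. No microRNA of the table is made by fat alone. MiR-145-5p, of smooth muscle and stromal cells, had a median share of 870.5 CPM in VAT and 178 CPM in kidney, and was not listed for liver or PFC. MiR-199a-3p, of fibroblasts, was at 1784 CPM in VAT, 1475 in kidney and 271 in liver. MiR-140-3p, the other stromal microRNA measured, went the other way. Its median share was 512 CPM in VAT, 1964 in kidney, 1094 in liver and 973 in PFC. Of the lists of markers, 0 of 4 for muscle and 0 of 9 for testis and epididymis were among the 64. Both lists also had 0 members in the kidney, liver and PFC tables, so their absence does not mark fat. The lists were matched by name only. MiR-1b (seed GGAAUGU), a relative of miR-1-3p that is not on the muscle list, was in the fat table at 0 to 658 CPM. The 0 of 4 therefore does not show that muscle microRNAs were absent from fat. MiR-10b-5p led the VAT libraries and was also the leading microRNA of 11 of the 12 kidney libraries, so it does not tell fat from kidney.

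No microRNA of visceral fat passed the diet test after adjustment for the 64 tested. By edgeR's quasi-likelihood test, 0 of 64 had a Benjamini-Hochberg (BH) adjusted p under 0.05 (0% of those tested), and the lowest adjusted p was 0.593. DESeq2's Wald test and limma-voom also called 0. At an unadjusted p under 0.05, the threshold the study used for microRNAs, 4 microRNAs (6.25%) were lower on egg and 0 were higher, by edgeR. The 4 were miR-140-3p, miR-191a-5p, miR-125b-5p and miR-10b-5p. At the same threshold DESeq2 gave 4 lower (6.25%) and 1 higher (1.56%, miR-221-3p), and limma-voom 4 lower and 0 higher. Without rat 12, edgeR gave 3 lower (4.69%; miR-140-3p, miR-191a-5p and miR-99b-5p) and 1 higher (1.56%, miR-30a-5p), with 0 after adjustment. Of all 64, 36 had a log2 fold change above 0 and 28 below, with a median of 0.08. With library size taken as the total count and no TMM, the median was 0.35, 47 were above 0 and 17 below, and 1 microRNA was lower (miR-140-3p) and 4 were higher at an unadjusted p under 0.05. The split of directions thus depended on the scaling.

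The ranges of the diets overlapped for every one of the 64 microRNAs (0% apart). All 6 rats on egg were below the casein median for 3 microRNAs (miR-140-3p, miR-191a-5p and miR-148a-3p) and all 6 were above it for 1 (miR-199a-3p). The SE of the log2 fold change had a median of 0.32 and ran from 0.10 to 1.46. For 30 microRNAs the 95% interval lay within a 2-fold change in either direction, and for the other 34 it reached past 2-fold, so that a change of that size was not excluded.

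**Figure D2:**
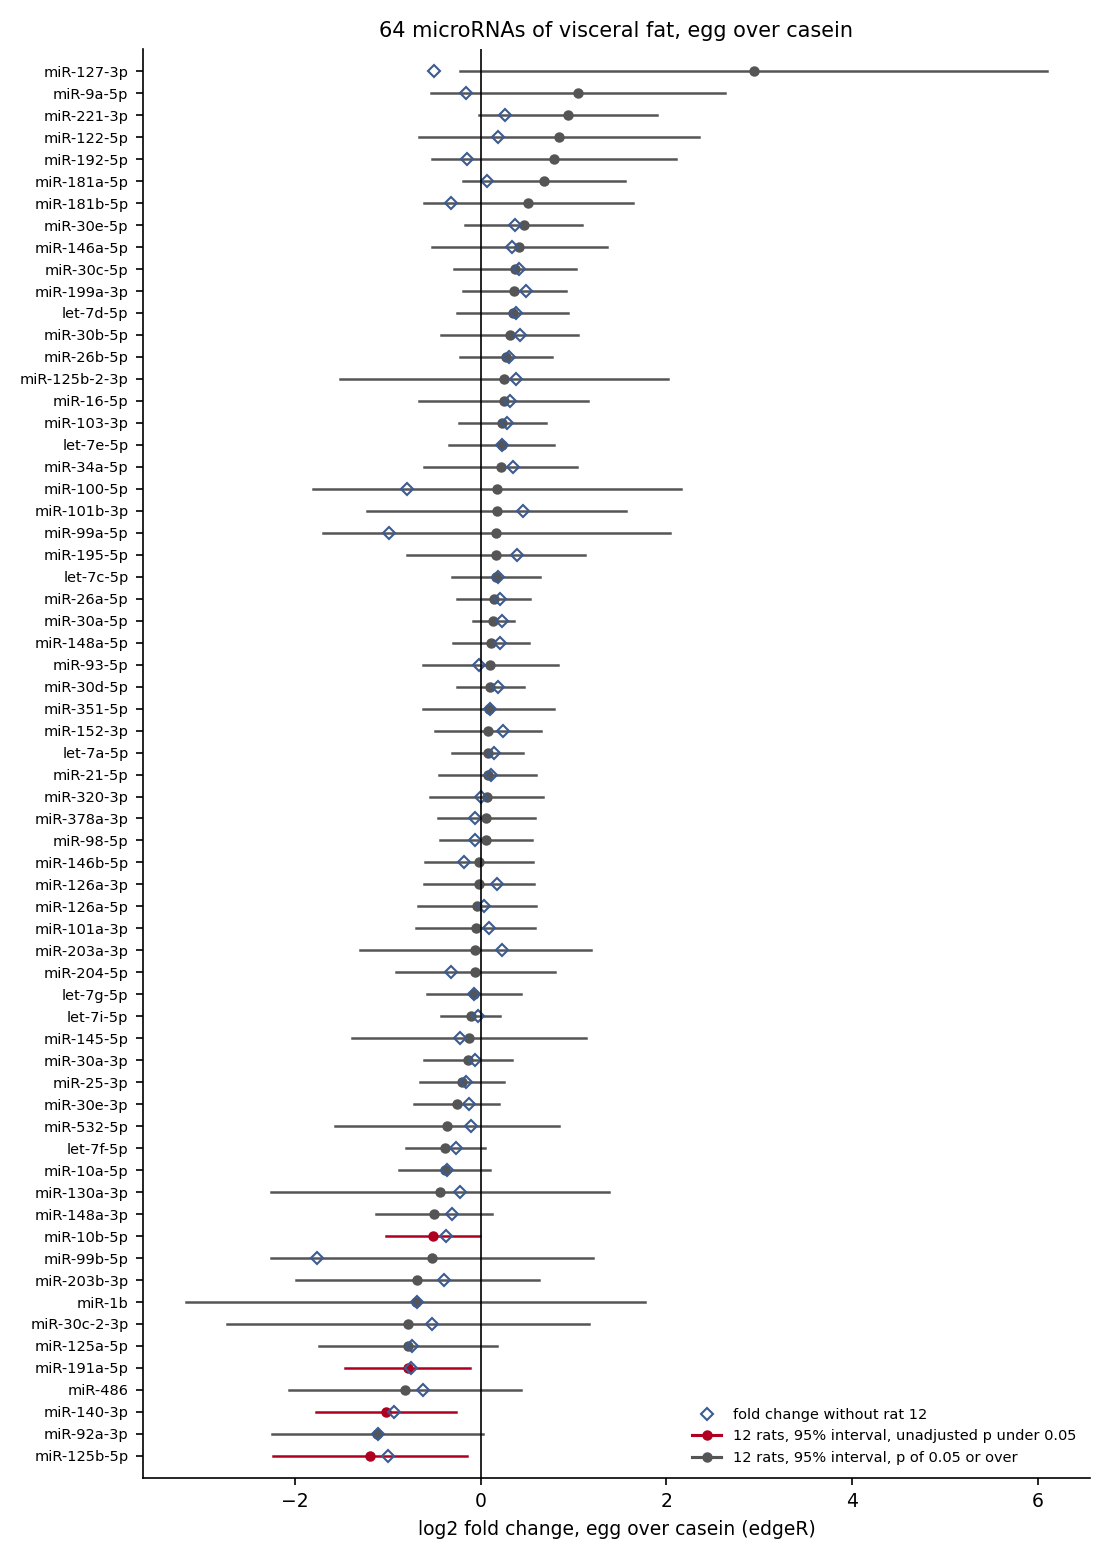
Log2 fold change of all 64 microRNAs, egg over casein (x), with its 95% interval by edgeR. Red marks the 4 with an unadjusted p under 0.05 and open diamonds give the fold change without rat 12. MiR-127-3p, miR-9a-5p, miR-221-3p and miR-192-5p, at the upper end with all 12 rats, sit at -0.50, -0.16, 0.27 and -0.14 without rat 12.

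MiR-140-3p, known chiefly from cartilage and mesenchymal cells, had the smallest p. It had 227, 294 and 627 CPM (lowest, median and highest) in rats on egg, against 409, 852 and 1022 CPM in rats on casein. The mean was 379 ± 176 CPM on egg and 769 ± 263 CPM on casein (SD, n = 6 each). On egg, rats 8 and 10 were high and reached into the range of casein, where rats 1 and 3 were low. Egg over casein, the log2 fold change was -1.02 (SE 0.35, 95% interval -1.77 to -0.26, unadjusted p = 0.0124 and adjusted p = 0.593 from edgeR). The value of rat 12 rests on 16 counts.

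MiR-140-3p kept an unadjusted p under 0.05 in each of 20 planned settings, with p between 0.00135 and 0.0446 and a log2 fold change between -1.30 and -0.78. These settings are not independent. With no filter or at least 50 counts in 6 libraries, all 64 microRNAs were kept and the main fit was repeated. Another 12 leave out 1 rat each and share most rats. Without rat 12 it was -0.93 (p = 0.0254 from edgeR), and without rat 9 also -0.93 (p = 0.0267). The adjusted p was between 0.0866, in limma-voom with quality weights, and 0.907, without rat 9.

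MiR-191a-5p, found in most tissues, had 3129, 4167 and 5625 CPM in rats on egg, against 3333, 6677 and 13998 CPM in rats on casein. Rat 9 was the highest on casein and rats 3 and 11 lay within the range of egg. This gave a log2 fold change of -0.78 (SE 0.31, 95% interval -1.46 to -0.11, unadjusted p = 0.0262 and adjusted p = 0.593 from edgeR). Without rat 12 it was -0.75 (p = 0.040), and without rat 9 it was -0.48 (p = 0.0885), no longer under 0.05. Leaving out rat 2 or rat 5 also gave a p over 0.05 (0.0551 and 0.0693).

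MiR-125b-5p is a vertebrate relative of lin-4, the first microRNA described in worms, and acts in differentiation of several lineages. It had 302, 627 and 1755 CPM in rats on egg, against 554, 1531 and 3976 CPM in rats on casein. Rat 12 was the lowest, from 15 counts, rat 8 on egg lay above the casein median, and rat 9 was the highest on casein. Its log2 fold change was -1.19 (SE 0.48, 95% interval -2.24 to -0.14, unadjusted p = 0.0291 and adjusted p = 0.593 from edgeR). It was -0.99 (p = 0.0545) without rat 12 and -0.80 (p = 0.103) without rat 9. Of the 12 fits that each leave out 1 rat, 6 had a p under 0.05.

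The miR-125 seed as a whole was carried mainly by miR-125a-5p, which had 2190, 2808 and 7986 CPM in rats on egg, against 3082, 5308 and 13282 CPM in rats on casein (log2 fold change -0.78, SE 0.44, p = 0.101 from edgeR). MiR-351-5p, the rodent member of this seed, had a log2 fold change of 0.09 (SE 0.33, p = 0.791). The summed seed CCCUGAG had 5603 ± 2705 CPM on egg and 8876 ± 4188 CPM on casein, a log2 fold change of -0.66 (SE 0.36, p = 0.0852 and adjusted p = 0.548 from edgeR over 45 seed families).

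MiR-10b-5p was the most abundant microRNA of all 12 fat libraries. It took 31.5, 46.1 and 53.8% of the counts (lowest, median and highest) in rats on egg, against 48.4, 52.0 and 56.4% in rats on casein. Rat 12 had the lowest share, and rats 8 and 10 on egg were within the range of casein. The mean share was 45.2 ± 7.68% on egg and 52.0 ± 2.72% on casein (exact two-sided permutation p = 0.0455, adjusted p = 0.238 over 10 library measures). Without rat 12 the mean on egg was 47.9 ± 4.15% (exact permutation p = 0.0909, adjusted p = 0.476).

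On the TMM scale miR-10b-5p averaged 417204 ± 116490 CPM on egg and 594936 ± 200175 CPM on casein (log2 fold change -0.51, SE 0.23, unadjusted p = 0.0463 and adjusted p = 0.593 from edgeR). This was -0.37 (p = 0.127) without rat 12 and -0.31 (p = 0.119) without rat 9, which at 980929 CPM was the highest library. Of the 12 fits that each leave out 1 rat, 4 had a p under 0.05.

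MiR-10a-5p, encoded in the Hox region of chromosome 10, had 92545, 124118 and 136123 CPM in rats on egg, against 110210, 131965 and 278940 CPM in rats on casein (log2 fold change -0.39, SE 0.23, p = 0.112 from edgeR). The share of miR-10a-5p and miR-10b-5p together was 58.4 ± 6.97% on egg and 65.5 ± 4.17% on casein (exact permutation p = 0.0476, adjusted p = 0.238), and without rat 12 the mean on egg was 60.8 ± 4.13% (p = 0.0952 by the same test). The ratio of miR-10b-5p to miR-10a-5p, which needs no scaling, had a median of 3.59 on egg and 3.78 on casein (exact permutation p = 0.305).

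**Figure D3:**
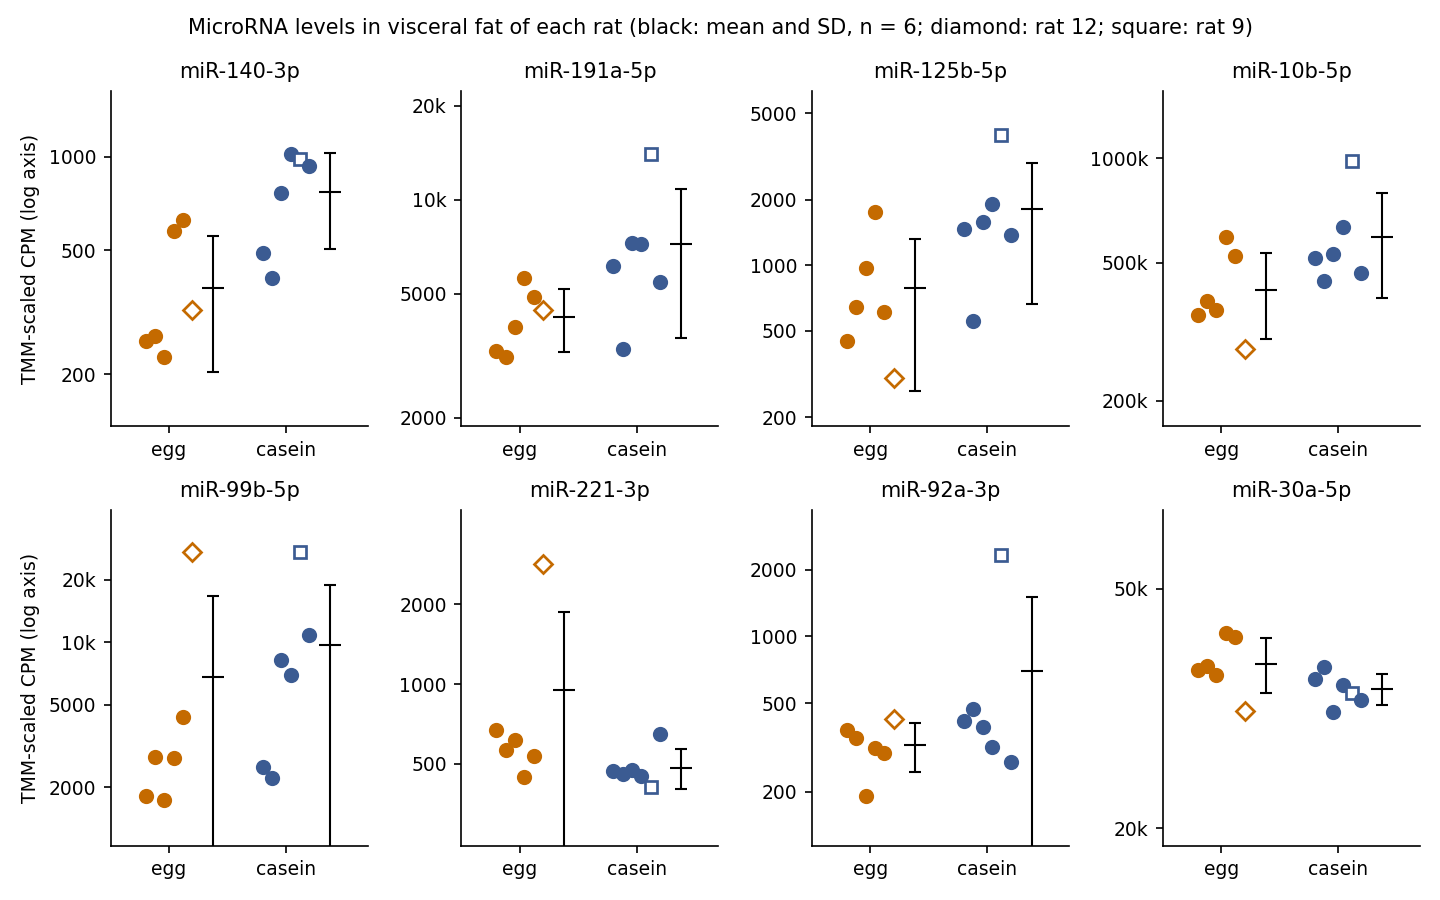
TMM-scaled CPM (y, log axis) of 8 microRNAs in each rat on egg (left, orange) and casein (right, blue), with the mean and SD of 6 rats in black; a bar that meets the lower edge runs below it. The open diamond is rat 12 and the open square rat 9. All groups overlap. Rat 9 is the highest on casein for miR-191a-5p, miR-125b-5p, miR-10b-5p, miR-99b-5p and miR-92a-3p, and rat 12 is far above the other egg rats for miR-99b-5p and miR-221-3p.

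MiR-221-3p, of vessels and adipocyte precursors, had 445, 590 and 2842 CPM in rats on egg, against 409, 463.2 and 648 CPM in rats on casein. The highest value was rat 12, and the next on egg was 673 CPM. Its log2 fold change was 0.94 (SE 0.44, 95% interval -0.02 to 1.90, p = 0.0542 from edgeR, 0.040 from DESeq2). Without rat 12 it was 0.27 (SE 0.19, p = 0.192 from edgeR).

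MiR-127-3p had the largest log2 fold change of the 64, 2.94 (SE 1.46, p = 0.0653 from edgeR), with 15099 CPM in rat 12 and 0 to 509 CPM in the other 5 rats on egg, against 142 to 525.5 CPM on casein. Without rat 12 the log2 fold change was -0.50 (SE 0.91, p = 0.595). MiR-92a-3p, of the miR-17/92 cluster, had a log2 fold change of -1.11 (p = 0.0556 from edgeR), with 191 to 423 CPM in rats on egg, against 273 to 474 CPM in 5 rats on casein and 2322 CPM in rat 9. Without rat 9 it was -0.21 (p = 0.489).

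MiR-99b-5p lies beside let-7e and miR-125a on chromosome 1, within Spaca6 in GRCr8. It had 1745, 2791 and 27073 CPM in rats on egg, against 2227, 7619 and 27151 CPM in rats on casein. The highest on egg was rat 12, and the next was 4380 CPM, while on casein rat 9 was the highest and rats 6, 7 and 11 lay between 6988 and 10815 CPM. The log2 fold change was -0.52 (SE 0.80, p = 0.527 from edgeR) with all rats, -1.76 (SE 0.61, p = 0.0134, adjusted p = 0.639) without rat 12, and 0.13 (SE 0.78, p = 0.871) without rat 9. Without both it was -1.16 (p = 0.0361, adjusted p = 0.849), so the direction and the size turned on these 2 rats.

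Let-7e-5p, from the same region, varied less, with a coefficient of variation of 0.289 on egg and 0.281 on casein, against 1.48 on egg and 0.952 on casein for miR-99b-5p. Let-7e-5p had a log2 fold change of 0.23 (SE 0.26, p = 0.402 from edgeR). The ratio of miR-99b-5p to let-7e-5p ran from 0.211 to 4.22 on egg and from 0.400 to 7.31 on casein, with a median of 0.581 on egg and 1.202 on casein (exact permutation p = 0.242 on the log2 ratio, and 0.0649 without rat 12). The ratio of miR-125a-5p to let-7e-5p had a median of 0.521 on egg and 1.06 on casein (exact permutation p = 0.104).

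MiR-99a-5p and miR-100-5p, relatives of miR-99b-5p, varied widely within both diets. MiR-99a-5p had 1356 to 5123 CPM in rats 2, 4, 5 and 8 on egg, 11141 in rat 10 and 40014 in rat 12. On casein it had 1825 CPM in rat 1 and 1269 in rat 3, and 10522 to 18708 CPM in rats 6, 7, 9 and 11. For miR-99a-5p the log2 fold change was 0.17 (SE 0.86, p = 0.847 from edgeR), and -0.98 (SE 0.73, p = 0.205) without rat 12. For miR-100-5p it was 0.18 (SE 0.91, p = 0.847), and -0.79 (p = 0.366) without rat 12.

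Over the list of the miR-10, miR-99/100 and miR-125 families, 8 of 9 members were measured. At an unadjusted p under 0.05 by edgeR, 2 were lower and 0 higher, beside 4 lower (6.25%) and 0 higher of all 64. The 2 were miR-10b-5p and miR-125b-5p, which the study had also named for fat, and the list was chosen with earlier results known. The median log2 fold change of the list was -0.45 beside 0.08 for all 64, which is therefore no independent support for a family difference. Without rat 12, 1 of the list was lower, beside 3 (4.69%) of all 64. The median of the list was then -0.77, and that of all 64 was -0.02.

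The let-7 microRNAs, which act late in development and in insulin signalling, were together the next most abundant group. Their summed seed had 154442 ± 22864 CPM on egg and 163588 ± 23333 CPM on casein, and its log2 fold change was -0.08 (SE 0.13, 95% interval -0.36 to 0.20, p = 0.533 from edgeR). Let-7f-5p had 35922, 46792 and 64834 CPM in rats on egg, against 40562, 58952 and 89564 CPM in rats on casein (log2 fold change -0.38, SE 0.20, p = 0.0793). Let-7a-5p, which differs from let-7f-5p by 1 base (G12A, counted from the 5′ end with the let-7a base first), had a log2 fold change of 0.08 (SE 0.18, p = 0.664). Reads of these 2 can be confused in counting. Of 8 let-7 members measured, 0 passed an unadjusted p under 0.05, and the median log2 fold change was 0.07.

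The miR-30 family is reported to promote adipocyte differentiation in human cells. MiR-30a-5p had 31366, 36954 and 42280 CPM in rats on egg, against 31179, 34080 and 37024 CPM in rats on casein. Rat 12 was the lowest on egg. Egg over casein it had a log2 fold change of 0.14 (SE 0.10, 95% interval -0.08 to 0.36, p = 0.195 from edgeR), the narrowest interval of the 64, and 0.23 (SE 0.10, p = 0.0396, adjusted p = 0.639) without rat 12. MiR-30e-5p had 1355, 2289 and 3366 CPM in rats on egg, against 1066, 1363 and 2562 CPM in rats on casein (log2 fold change 0.46, SE 0.29, p = 0.134). Its other strand, miR-30e-3p, had a log2 fold change of -0.26 (SE 0.21, p = 0.246). The ratio of the strands (5p over 3p) had a median of 4.45 on egg and 2.03 on casein (exact permutation p = 0.0714, adjusted p = 0.277 over 8 ratios). All 7 members were measured, 0 passed an unadjusted p under 0.05, and their median log2 fold change was 0.14.

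Among microRNAs known from adipocyte differentiation, 7 of 19 in the list were in the table, and 0 passed an unadjusted p under 0.05 (median log2 fold change 0.06). MiR-148a-3p, reported to promote adipogenesis, had 5181, 11581 and 14946 CPM in rats on egg, against 9998, 15046 and 26222 CPM in rats on casein. All 6 egg rats were under the casein median, with rat 12 the lowest. Its log2 fold change was -0.50 (SE 0.29, p = 0.104 from edgeR), and -0.31 (p = 0.229) without rat 12. Its other strand, miR-148a-5p, had a log2 fold change of 0.12 (SE 0.19, p = 0.548). The ratio of 3p to 5p had a median of 8.19 on egg and 13.3 on casein (exact permutation p = 0.0909, adjusted p = 0.277). MiR-378a-3p, encoded within the coactivator gene Ppargc1b, had a log2 fold change of 0.06 (SE 0.24, p = 0.801), and miR-26a-5p one of 0.14 (SE 0.18, p = 0.448).

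No summed list of markers of other cells in fat differed between the diets by the exact permutation test. Each list was measured only in part, so these sums do not show whether the numbers of such cells were unchanged. Of the erythroid list, 2 of 6 were measured, and miR-451-5p and both miR-144 strands were not. MiR-486, abundant in red cells, had 956, 3683 and 12344 CPM in rats on egg, against 4028, 8601 and 14551 CPM in rats on casein (log2 fold change -0.81, SE 0.58, p = 0.182 from edgeR). Together with miR-16-5p, the list summed to 2939 to 17379 CPM on egg and 5217 to 18015 CPM on casein (exact permutation p = 0.335).

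Of the leukocyte list, 3 of 8 were measured, miR-21-5p, miR-146b-5p and miR-146a-5p. They summed to 14849 to 23242 CPM on egg and 14593 to 26940 CPM on casein (exact permutation p = 0.669). Both miR-142 strands, miR-223-3p, miR-155-5p and miR-150-5p were not measured. The median share of miR-21-5p was 11661 CPM in VAT and 33052 in liver. That of miR-146b-5p was 4675 CPM in VAT and 14014 in PFC. The endothelial list, 3 of 4, summed to 2523 to 4072 CPM on egg and 2109 to 3736 CPM on casein (p = 0.247 by the same exact permutation test). The stromal list, 3 of 10, was miR-140-3p with miR-199a-3p and miR-145-5p, and its sum was 3773 ± 1047 CPM on egg and 3813 ± 1352 CPM on casein (exact permutation p = 0.946). MiR-199a-3p alone had 1460, 2223 and 2661 CPM in rats on egg, against 1042, 1425 and 2356 CPM in rats on casein, all 6 egg rats above the casein median (log2 fold change 0.36, SE 0.25, p = 0.177 from edgeR). MiR-145-5p had a log2 fold change of -0.12 (SE 0.58, p = 0.834).

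Markers of brain (1 of 7 measured), liver (1 of 2) and kidney (2 of 8) were summed together (4 measured). On egg the sum was 3362 to 42856 CPM, with rat 12 at the top and the next at 15436. On casein it was 3791 to 9506 CPM (exact permutation p = 0.554, and 0.896 without rat 12). The 2 kidney markers were not highest in kidney. For miR-192-5p the median share was 39931 CPM in kidney and 117111 in liver. For miR-204-5p it was 596 CPM in kidney and 2032 in PFC.

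Fitted over 45 seed families (39 seeds and 6 microRNAs without a sequence), 0 had an adjusted p under 0.05 by edgeR (0%), and 3 (6.67%) were lower at an unadjusted p under 0.05: the seeds of miR-140-3p (ACCACAG, p = 0.00645, adjusted p = 0.290), miR-191a-5p (AACGGAA, p = 0.0213) and miR-10b-5p (CCUGUAG, p = 0.0279). Each of these seeds has 1 member here. DESeq2 called 0 after adjustment and, at an unadjusted p under 0.05, the same 3 seeds lower and 2 higher. The 2 were the seed of miR-221-3p and GUAAACA, which sums miR-30a-5p, miR-30c-5p and miR-30e-5p. MiR-30b-5p, miR-30d-5p and miR-99a-5p had no sequence and were fitted alone, so the sums of their relatives may be incomplete. The 11 seeds with 2 or more members had unadjusted p-values of 0.0852 to 0.929 by edgeR.

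**Figure D4:**
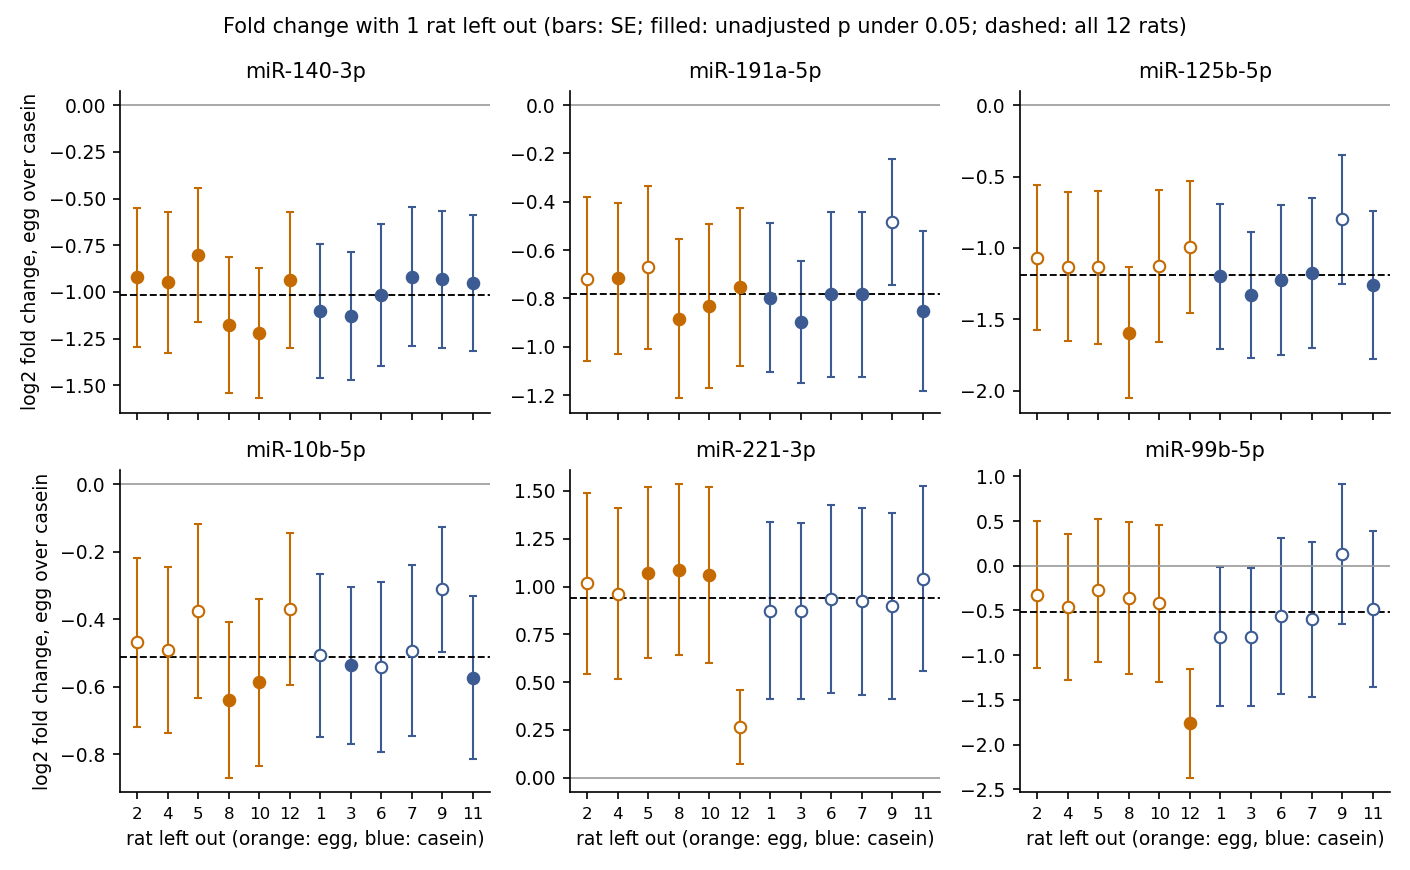
Log2 fold change, egg over casein (y), of 6 microRNAs with each rat left out in turn (x, egg rats first), with the SE as bars; filled points have an unadjusted p under 0.05 by edgeR and the dashed line is the value with 12 rats. MiR-140-3p is filled in 12 of 12 fits, miR-191a-5p in 9, miR-125b-5p in 6 and miR-10b-5p in 4, while miR-99b-5p is filled only without rat 12.

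The diet effect in fat was set against that in each other tissue by an interaction term over 24 libraries. The difference had an adjusted p under 0.05 for 0 of 51 microRNAs shared with kidney, 0 of 46 with liver and 0 of 54 with PFC (0% each, by edgeR), and an unadjusted p under 0.05 for 1 (1.96%), 1 (2.17%) and 3 (5.56%). The 1 with kidney was miR-140-3p, with a log2 difference of -1.08 (SE 0.50, p = 0.0424, adjusted p = 0.934). With the rat as a block, its p was 0.0528, and without rat 12 the log2 difference was -0.87 (p = 0.116 from edgeR). In kidney alone its log2 fold change was 0.07 (SE 0.36), from 1910 ± 793 CPM on egg and 1822 ± 698 CPM on casein. In liver it was -0.15 (SE 0.38) and in PFC -0.22 (SE 0.34), and fat minus liver and fat minus PFC had p = 0.112 and 0.109 from edgeR.

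The other 3 microRNAs lower in fat had no tissue difference with an unadjusted p under 0.05 when all rats were used. For miR-191a-5p the log2 difference from liver was -1.12 (SE 0.60, p = 0.074), and without rat 12 it was -1.26 (p = 0.0481, adjusted p = 0.538 from edgeR). MiR-10b-5p had a log2 fold change of -0.32 in kidney, -0.20 in liver and -1.28 in PFC, each with a 95% interval that holds 0. MiR-125b-5p was listed for VAT and PFC only, and its log2 fold change in PFC was -0.74 (SE 0.50, p = 0.163).

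MiR-21-5p, a microRNA of fibroblasts and immune cells, was the 1 with liver. In fat it had 12426 ± 3343 CPM on egg and 11786 ± 3857 CPM on casein (log2 fold change 0.08, SE 0.24, p = 0.756 from edgeR), while in liver its log2 fold change was -0.56 (SE 0.16, p = 0.00405, adjusted p = 0.105). The log2 difference, fat minus liver, was 0.64 (SE 0.28, p = 0.0349, adjusted p = 0.639), and with the rat as a block 0.66 (p = 0.00239, adjusted p = 0.110). The 3 with PFC, miR-181a-5p, miR-192-5p and miR-127-3p, were all among those raised in rat 12, and none of them had a p under 0.05 without rat 12.

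**Figure D5:**
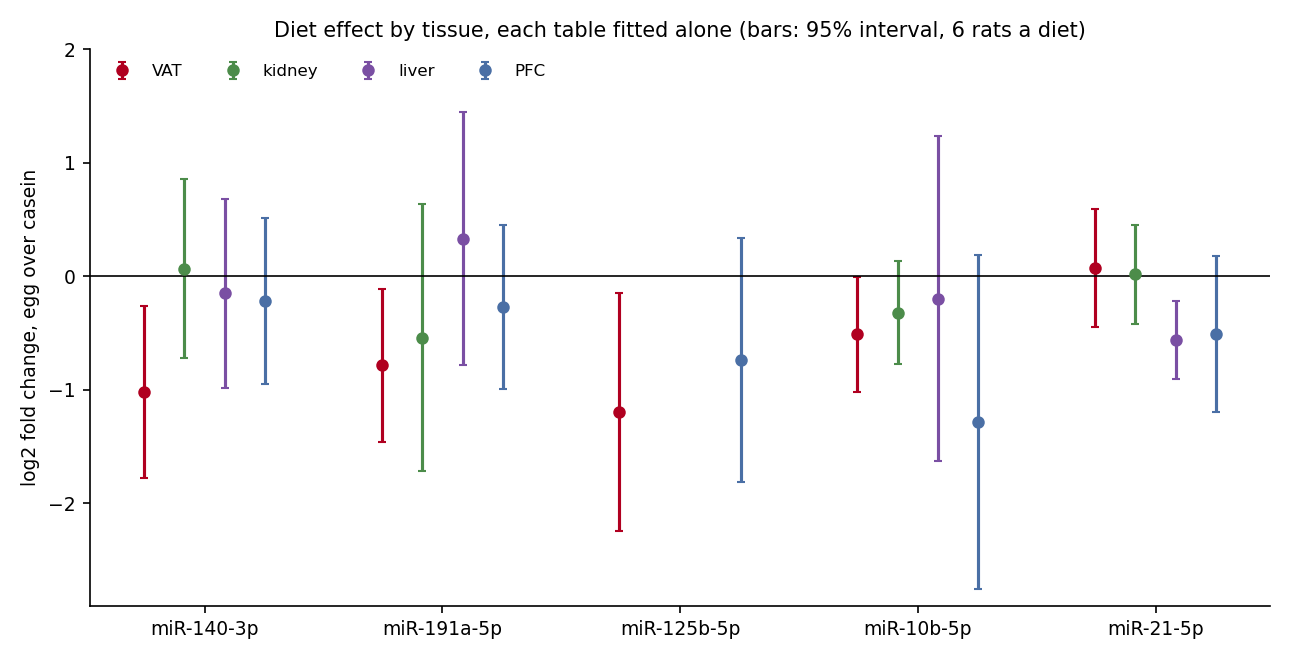
Log2 fold change, egg over casein (y), with its 95% interval by edgeR for 5 microRNAs in VAT, kidney, liver and PFC, each table fitted alone with 6 rats a diet. MiR-140-3p is at -1.02 in VAT and between -0.22 and 0.07 in the other tissues, miR-125b-5p has values for VAT and PFC only, and miR-21-5p is at 0.08 in VAT and -0.56 in liver.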

How the data were processed

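The authors made Lexogen small RNA libraries, read them on an Illumina HiSeq, trimmed adapters with BBDUK, aligned with Bowtie in smallrnaseq to RNAcentral references and deposited raw counts per microRNA. For the small RNA reads, tool versions and the genome build are not given in the sources used here; the submitters' notes name FastQC and DESeq. Messenger RNA counts and the authors' comparison tables (fold changes and p-values) were not used here.

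All 64 microRNAs passed a minimum of 10 counts in 6 libraries and were, after TMM scaling, tested by edgeR's robust quasi-likelihood fit (edgeR 4.0.16, limma 3.58.1, DESeq2 1.42.0, R 4.3.3), with BH adjustment over the table. CPM values use TMM-scaled library sizes except where shares are named. Library measures and within-library ratios were tested by exact two-sided permutation of rats (scipy 1.17.1, Python 3.11.15); the ratios, and the summed share of miR-10a-5p and miR-10b-5p, were chosen after the counts had been seen. Seed families are counts summed by RefSeq seed (GRCr8). By the labels, an animal number names 1 rat in all tissues; deviations from the diet means had median correlations of -0.0044 (kidney), -0.12 (liver) and -0.14 (PFC) with fat. No library was a copy of another (the lowest chi-square per degree of freedom of any pair was 104.8 in fat, 31.6 in kidney, 216.9 in liver and 110.4 in PFC). Scripts were checked on simulated counts.

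Named microRNAs are those with an unadjusted p under 0.05, the 5 the study names for fat, the 10 most abundant, and up to 3 of each list; others were chosen after their values were seen. Members and lists were chosen with earlier results of these data known. Alternatives were DESeq2, limma-voom, other scalings and filters, a rat block, and each rat left out; 3 more were added after the data were seen.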

Additional observations from a re-analysis of the deposited data

Results flagged for a closer look

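Each rat was compared with the rest of its diet group for the 30 named microRNAs and 4 library measures, by the gap of the extreme rat to its nearest neighbour as a share of the group's range. Of 68 groups, 12 held a rat far from the others, where chance alone gives about 1 in 20. Rat 12, on egg, was the one in 6, rat 9, on casein, in 3 and rat 11, on casein, in 3.

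In rat 12, miR-221-3p was at 2842 CPM (next on egg 673), miR-99a-5p at 40014 (next 11141), miR-192-5p at 10644 (next 2810) and miR-9a-5p at 16328 (next 3999). The 10 most abundant microRNAs took 68.1% of its counts, against 85.5% or more in the other egg rats, and markers of brain, liver and kidney summed to 42856 CPM (next 15436).

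In rat 9, miR-191a-5p was at 13998 CPM (next on casein 7259), miR-10b-5p at 980929 (next 632342) and miR-21-5p at 19502 (next 11180). These values are TMM-scaled, and the low TMM factor of rat 9, 0.575, raises them above its shares of the counts. As a share, miR-10b-5p took 56.4% in rat 9 (next on casein 52.8%). MiR-21-5p had 17240 of 1536300 counts in rat 9 and a higher share, 10345 of 863166, in rat 3. The share of miR-191a-5p in rat 9, 8055 CPM, was still the highest in fat. In rat 11, miR-221-3p was at 648 CPM (next on casein 472), miR-145-5p at 3799 (next 1717) and let-7a-5p at 26321 CPM, lower than the nearest, 49673.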

How the results depend on the processing

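In all 20 planned settings and in 2 added after the data were seen, 0 of 64 microRNAs had an adjusted p under 0.05, as with 12 rats; the lowest adjusted p of the planned ones was 0.0866. With no filter or at least 50 counts in 6 libraries, all 64 microRNAs were kept, so these settings repeat the main fit. The count at an unadjusted p under 0.05 (0 higher and 4 lower with 12 rats) moved with the setting. It was 1 higher by DESeq2, 1 higher and 9 lower by limma-voom with quality weights, and 4 higher and 1 lower with total counts. Leaving out 1 rat gave 0 to 1 higher and 1 to 6 lower; the lower count was 1 without rat 2, rat 5 or rat 9 and 2 without rat 4, and without both rat 9 and rat 12 it was 2. Over seed families, DESeq2 gave 2 higher, against 0.

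The replicate block by rat number gave, for fat minus PFC, 0 higher, against 3 without it, and changed no other count by over 1.5 times, though for fat minus kidney the 1 lower was then let-7f-5p (log2 difference -0.45, p = 0.0433 from edgeR) in place of miR-140-3p. Without rat 12, fat minus PFC had 0 higher and 4 lower, fat minus kidney 1 higher and 0 lower, and fat minus liver 1 lower. Egg and casein rats share no numbers, so the fat comparison itself has no pairs. Without rat 12 the difference in the share of miR-10b-5p was -4.07 percentage points (-6.81 with it) and that of miR-10a-5p and miR-10b-5p -4.76 (-7.17 with it), with exact permutation p-values of 0.0909 and 0.0952. For the 30 named microRNAs, 623 of the values under alternatives stayed on the same side of p = 0.05, 25 lost and 12 gained an unadjusted p under 0.05, and no called value changed sign. The 623 include the settings that repeat the main fit, where no change was possible. They also include values that changed sign without a p under 0.05. In rat 12, miR-125b-5p rests on 15 counts and miR-140-3p on 16.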
